A study of Homo sapiens with 5 samples.

Results

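Chromosome 19 is the most gene-dense human chromosome, and the bins described here are the 500 stretches of the other autosomes that met it most often in HL60 nuclei. HL60 is a human promyelocytic leukaemia line that can be driven along different myeloid paths. Contacts were counted by Hi-C, in which crosslinked chromatin is cut, here with HindIII, and the ends that lie close together in the nucleus are ligated and sequenced. The groups were cells treated with all-trans retinoic acid (ATRA, 1 library), which turns HL60 cells granulocyte-like, cells treated with the phorbol ester TPA (2 libraries), which turns them macrophage-like, and untreated cells (2 libraries); doses and times were not given in the sources used here. Each group was a single matrix of 500 kb bins on hg19 in which its libraries were merged, so no spread between libraries can be given, no test was made, and every interval below is a 95% interval for counting error only.

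For each autosomal bin outside chromosome 19 with at least 0.2 of the median coverage, contacts with all bins of chromosome 19 were divided by all its contacts with other chromosomes, in the sum of the 3 matrices. The 500 highest of 5239 such bins (9.54%), out of 6083 bins in all, are called members. The ranking value is therefore a description and supports nothing by itself.

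In the nucleus each chromosome keeps its own territory. Small gene-rich chromosomes tend to lie towards the nuclear interior and large gene-poor ones towards the periphery, and active stretches of different chromosomes meet each other preferentially, as what is called the A compartment. Chromosome 19 also carries large clusters of KRAB zinc finger genes, whose chromatin is known to be packed differently from that of the housekeeping genes around them. Ends of chromosomes and short gene-dense bands are further places where contacts between chromosomes are common. No gene is placed in a bin here, because the annotation used here is of another genome build.

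Over the members together, contacts with chromosome 19 made up 2.77% of contacts between chromosomes in ATRA (2.74 to 2.80), 3.37% in TPA (3.33 to 3.40) and 4.32% in untreated cells (4.28 to 4.35). The other 4739 bins gave 1.72% in ATRA, 2.03% in TPA and 1.90% in untreated cells. In the sum the members ran between 2.74% and 6.95% with a median of 3.28%. Chosen on each matrix alone, 345 of the 500 would be among the highest 500 in ATRA, 366 in TPA and 433 in untreated cells, and 242 would be so in all 3.

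The highest share was that of chr20:62000001-62500000, beside the end of the long arm, with 4.74% in ATRA, 5.23% in TPA and 10.1% in untreated cells (93, 152 and 302 contacts with chromosome 19). The next 3 lay near the start of chromosome 16. These were chr16:500001-1000000 with 4.60% in ATRA, 6.03% in TPA and 8.12% in untreated cells, chr16:2000001-2500000 with 5.11%, 4.68% and 8.85% in the same order, and chr16:2500001-3000000 with 4.05%, 5.35% and 8.75%. Each of the 4 was highest in untreated cells, in shares that the rule itself summed. Places 5 to 10 went to chr22:50500001-51000000, chr17:79500001-80000000, chr16:1-500000, chr20:62500001-63000000, chr9:139500001-140000000 and chr17:4000001-4500000, with 6.21%, 5.96%, 5.93%, 5.92%, 5.90% and 5.84% in the sum. All 10 of these bins lie within 5 Mb of an end of their chromosome.

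The limit cut through a continuous range. Just inside it, ranks 496 to 500 were chr15:74500001-75000000, chr17:56000001-56500000, chr2:97000001-97500000, chr11:63000001-63500000 and chr17:61500001-62000000, with shares of 2.75% down to 2.74%. Just outside were chr14:20000001-20500000, chr5:49500001-50000000, chr5:177500001-178000000, chr17:25000001-25500000 and a bin on chromosome 8, all at 2.74%. The counting intervals of these 10 bins lay between 2.22% and 3.34%, so membership near the limit is not settled by these counts.

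The members were gathered on the small chromosomes. Chromosome 22 had 50 of its 69 eligible bins among them (72.5%), chromosome 17 had 78 of 158 (49.4%), chromosome 20 had 42 of 120 (35.0%), chromosome 21 had 22 of 71 (31.0%) and chromosome 16 had 35 of 159 (22.01%). These 5 chromosomes held 45.4% of the members and 11.0% of the eligible bins. Chromosomes 4, 5 and 13, which are poor in genes, held 21 members, or 4.2% of the list against 17.6% of the eligible bins.

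**Figure D1:**
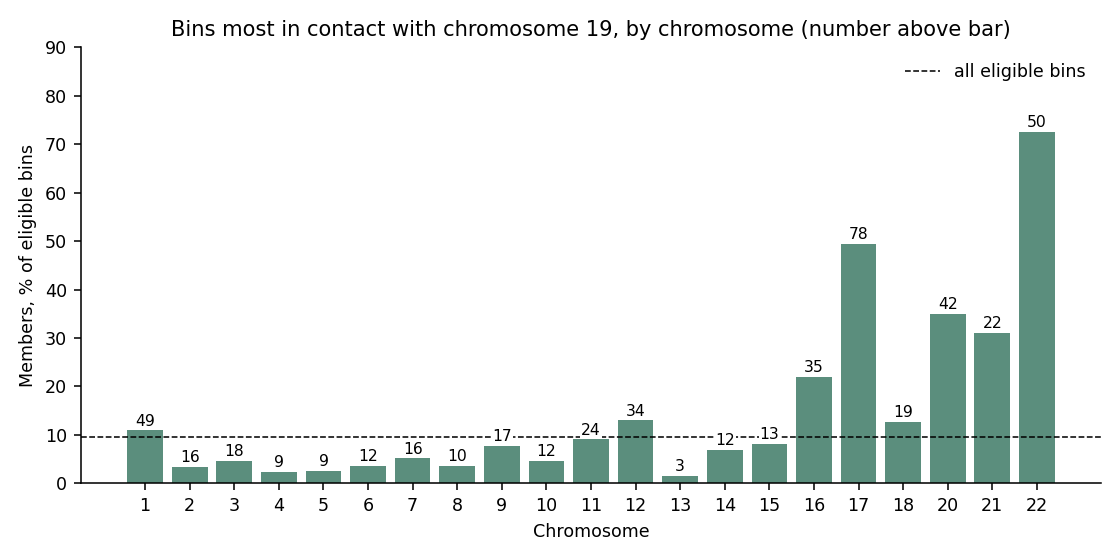
Share of each chromosome's eligible bins (y axis, %) that were members, by chromosome (x axis), with the number of members above each bar and the share over all eligible bins as a dashed line at 9.54%. Chromosomes 22, 17, 20, 21 and 16 stand highest and chromosome 13 lowest.

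Across the 21 chromosomes the percent of bins that were members went with protein-coding genes per Mb, with Pearson's r of 0.63 and Spearman's rho of 0.67. It went about as closely, and inversely, with the number of eligible bins (r of -0.64, rho of -0.71), so gene density and chromosome size cannot be told apart from 21 points. Chromosomes 18 and 21 departed from the order of gene density. Chromosome 18, with 3.44 genes per Mb, had 19 members among 149 bins (12.8%), and chromosome 21, with 4.93 genes per Mb, had 31.0%, while chromosome 11, with 9.64 genes per Mb, had 24 of 265 (9.06%). Gene counts are those of RefSeq's GRCh38.p14 table, used for whole chromosomes only.

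On some chromosomes the arms differed. All 9 members of chromosome 4 and all 12 of chromosome 6 lay on the short arm, which has 99 of 376 and 118 of 337 eligible bins. On chromosome 9 the long arm held 15 of 17 members, with 141 of 219 eligible bins. On chromosome 12 the long arm held 27 of 34 members, close to its part of the eligible bins (192 of 262). On chromosome 20 the long arm held 33 members among 67 bins, against 9 among 53 on the short arm.

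Ends of chromosomes were a frequent but not a regular site. Of the members, 124 (24.8%) lay within 5 Mb of an end, against 6.91% of the eligible bins, and 73 lay within 2 Mb, where 52.1% of all eligible bins were members. Of 37 ends with data, 24 held a member and 13 held no member. In 3 every eligible bin was a member, namely the starts of chromosomes 16 and 17 and the end of chromosome 21. Among the 13 were the end of chromosome 1, the start of chromosome 2, the end of chromosome 11 and both ends of chromosome 6, with highest shares there of 2.12%, 1.96%, 1.71% and, on chromosome 6, 2.28% and 1.82%. Within 5 Mb of the unmapped gap at the centromere lay 56 members (11.2%, against 6.09% of eligible bins).

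Members came in blocks. They formed 163 runs of adjacent bins, of which 77 were single bins and 8 were of 10 or more bins, and 69.5% of a member's neighbours were members, against 3.15% of the neighbours of other bins. The longest run covered chr22:36500001-47500000 (22 bins), with a pooled share of 2.66% in ATRA, 3.46% in TPA and 5.05% in untreated cells. It was followed by chr22:17000001-25000000 (16 bins; 3.12%, 3.31% and 4.32% in the same order), chr17:36500001-43500000 (14 bins; 2.73%, 3.47% and 5.03%) and chr20:30000001-37000000 (14 bins; 2.88%, 3.29% and 4.16%). The order of the 3 matrices was the same in each of these 4 runs, which is a description, since the rule summed these same contacts.

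Of the 10 longest runs, 3 reach a chromosome's end. That at chr16:1-5000000 (10 bins) had 3.78% in ATRA, 4.52% in TPA and 6.98% in untreated cells, that at chr17:1-5500000 (11 bins) had 3.57%, 3.99% and 6.65%, and that at chr21:43000001-48500000 (11 bins) had 3.20%, 3.92% and 5.16%. The remaining long runs were chr17:15500001-20500000 (10 bins), chr11:64000001-68500000 (9 bins) and chr17:72500001-77000000 (9 bins), the last equalled in length by chr1:25000001-29500000. The run on chromosome 11, inside the long arm, had 3.13% in ATRA, 3.76% in TPA and 5.67% in untreated cells.

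The members did not meet chromosome 19 evenly along its length. Divided into 12 windows of 5 Mb from the start of the short arm, the first window had the largest excess, with a contact share in members 4.14 times that of the other bins in ATRA (4.00 to 4.28), 3.14 times in TPA (3.04 to 3.23) and 4.90 times in untreated cells (4.76 to 5.04). The window at 45 to 50 Mb on the long arm came next in the sum, at 2.69 times in ATRA, 2.34 times in TPA and 3.33 times in untreated cells. The windows on either side of the centromere had none: at 20 to 25 Mb the ratio was 0.75 in ATRA, 0.85 in TPA and 0.90 in untreated cells, and at 25 to 30 Mb 0.83, 0.93 and 0.97. The stretch between 20 and 35 Mb took 14.4% of the members' contacts with chromosome 19, against 28.3% of those of the other bins. Since the members were ranked on contacts with the whole chromosome, this is a description of where on it those contacts fell. Among the 114 single bins of chromosome 19 with data the ratio in the sum ran from 0.75 to 5.49 with a median of 1.93, and 93 were above 1.

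**Figure D2:**
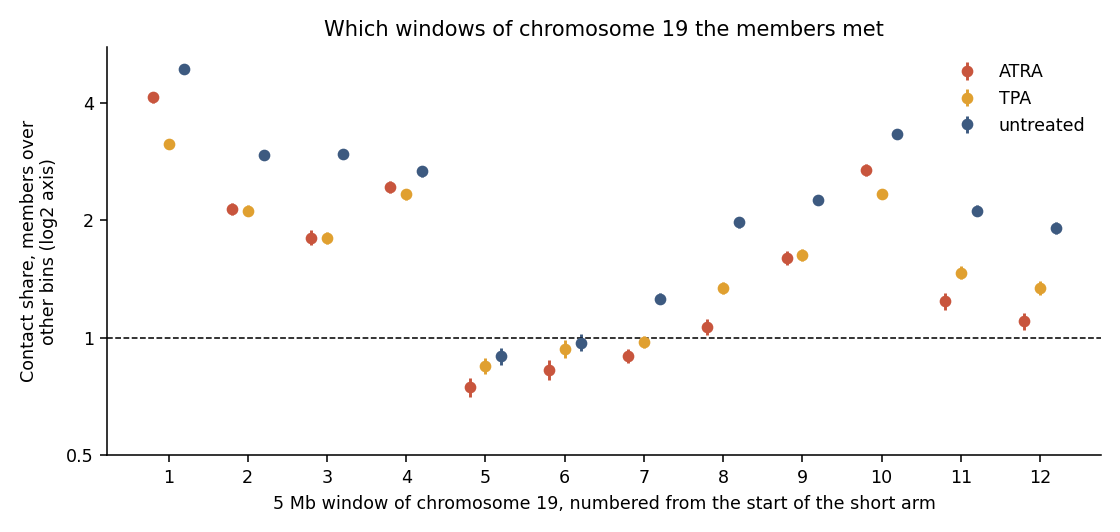
Contact share with each 5 Mb window of chromosome 19 (x axis, numbered from the start of the short arm), members divided by other bins (y axis, log2 scale), in ATRA, TPA and untreated cells; bars are 95% counting intervals. Window 1 stands at 3.14 to 4.90 and windows 5 and 6 lie at 0.75 to 0.97, and in windows 3, 8, 11 and 12 both treated matrices lie well below untreated cells.

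The windows also differed in how the members' contacts with them compared between matrices. The members' contact share differed least beside the centromere. At 20 to 25 Mb its log2 ratio to untreated cells was -0.27 for ATRA (-0.37 to -0.17) and 0.04 for TPA (-0.05 to 0.14), while at 25 to 30 Mb both intervals included 0, with -0.07 for ATRA (-0.18 to 0.04) and 0.05 for TPA (-0.05 to 0.15). At 15 to 20 Mb the ratio had values of -0.45 for ATRA (-0.51 to -0.39) and -0.14 for TPA (-0.19 to -0.08). At 35 to 40 Mb it differed by -1.05 in ATRA (-1.13 to -0.97) and -0.49 in TPA (-0.55 to -0.42), at 50 to 55 Mb by -0.96 and -0.50, and at 55 Mb to the end by -0.98 and -0.53. In these 3 windows the other bins had log2 values of -0.16, -0.19 and -0.19 for ATRA and 0.07, 0.03 and -0.02 for TPA. The members' excess over other bins there was smaller in ATRA, at 1.07, 1.24 and 1.10 times, than in untreated cells, at 1.98, 2.12 and 1.91 times. In TPA it was 1.34, 1.47 and 1.34 times. With members chosen instead on TPA alone, so that neither matrix of the ATRA comparison had a part in the choice, the same 3 windows gave log2 values of -0.96, -0.85 and -0.87, and with members chosen on ATRA alone the TPA values were -0.39, -0.40 and -0.44; this choice was added after the windows had been seen.

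A few members reached the list through a different part of chromosome 19. The clearest was chr7:64000001-64500000 (rank 148), which had 65 of its 149 contacts with chromosome 19 in the window at 20 to 25 Mb (43.6%), where the other bins had 8.43%. That window held 16 of 44 in ATRA, 41 of 75 in TPA and 8 of 30 in untreated cells. The sources used here do not say how reads from repeated sequence were placed, and the part of such reads in these contacts was not tested. The bin also had the lowest contact with other members, at 0.82 of expectation. Between 20 and 35 Mb lay 57.7% of its contacts with chromosome 19 (49.4 to 65.8), followed by chr21:23500001-24000000 with 41.4% and chr22:17000001-17500000 with 39.1%. At the other extreme chr22:38000001-38500000 had 3.90% there. Chromosome 18's 19 members together had 24.3% there, nearer to the 28.3% of other bins than to the 12.3% of chromosome 17's members.

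Contacts of the members with each other did not enter the numerator of the rule. Those between chromosomes were part of its denominator, all contacts with other chromosomes. Expected contacts were set from each bin's coverage between chromosomes, fitted over all eligible bins with every contact of chromosome 19 removed. Pairs of members on different chromosomes met at 1.91 times the expected rate in ATRA (86342 contacts, 1.90 to 1.92), 1.80 times in TPA (110476 contacts, 1.78 to 1.81) and 2.03 times in untreated cells (131698 contacts, 2.01 to 2.04). Members met the other bins at 0.92 of expectation in ATRA, 0.91 in TPA and 0.88 in untreated cells. Put as shares, 16.1% of a member's contacts between chromosomes were with members in ATRA, 17.7% in TPA and 20.7% in untreated cells, against 8.17%, 9.49% and 9.52% for the other bins. The excess of member pairs was thus present in every matrix.

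The 226 members on chromosomes 1 to 12 met each other at 1.98 times the expected rate in ATRA (1.95 to 2.01), 1.93 times in TPA (1.91 to 1.96) and 2.13 times in untreated cells (2.11 to 2.16). The 205 members on chromosomes 16, 17, 20 and 22 met each other at 2.38 in ATRA, 2.12 in TPA and 2.59 in untreated cells. With the expectation set within each pair of chromosomes, which removes the tendency of whole chromosomes to lie together, member pairs stood at 1.42 in ATRA, 1.39 in TPA and 1.42 in untreated cells.

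Contact with members was lower further down the ranking by chromosome 19 share. In the sum the members met each other at 1.92 of expectation, the bins ranked 501 to 1000 at 1.2505, those ranked 1001 to 1500 at 1.04, and those ranked 1501 to 2000 at 0.96. The lowest class, ranks 4501 to 5239, stood at 0.75. The step between the members and the next 500 bins was the largest of the 9.

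**Figure D3:**
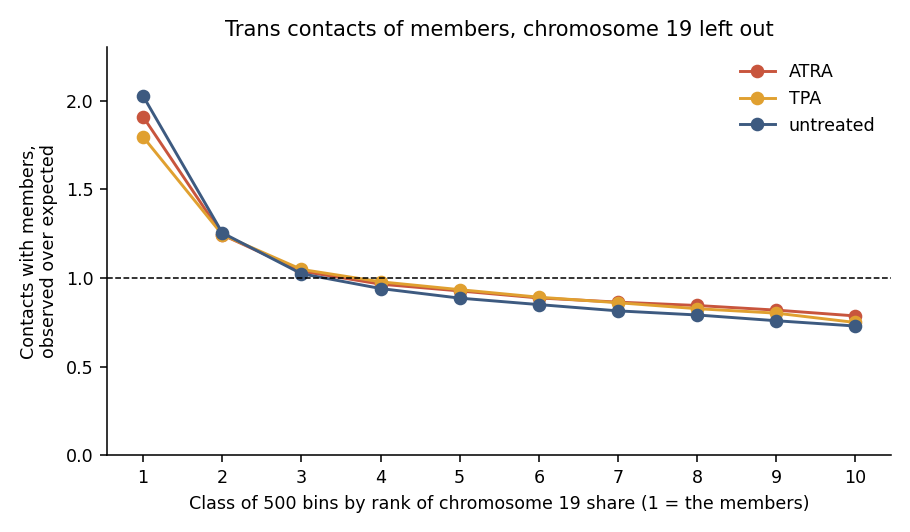
Contacts of the members with each class of bins in ranking order (x axis, 500 bins a class and ranks 4501 to 5239 in the last; class 1 is the members themselves), observed over expected between chromosomes with chromosome 19 left out (y axis), in ATRA, TPA and untreated cells. All 3 lines drop below 1 from class 4 on, and in class 1 untreated cells lie above ATRA and ATRA above TPA.

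Taken bin by bin in the sum, 491 of the 500 members stood above 1, where 29% of all eligible bins did. The counts were 486 in ATRA (where 29.7% of all eligible bins did), 489 in TPA (31.9%) and 493 in untreated cells (28%), and the median member stood at 1.89. The strongest were the same end bins that led the ranking. The bin at chr16:500001-1000000 stood at 3.86 in ATRA, 3.05 in TPA and 3.75 in untreated cells, chr16:1-500000 at 3.60, 2.79 and 3.72 in the same order, and chr22:50500001-51000000 at 3.36, 2.93 and 3.55. The 9 members below 1 were 3 on chromosome 21, 2 on chromosome 18 and 1 each on chromosomes 1, 5, 7 and 22. The lowest of these was the bin on chromosome 7 described above, at 0.85 in ATRA, 0.82 in TPA and 0.79 in untreated cells, followed by chr18:38000001-38500000 at 0.80, 0.91 and 0.74.

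Chromosome 18 formed the exception among chromosomes. Its members met the members of all other chromosomes at 1.31 of expectation, the lowest of the 21 chromosomes, where chromosome 16 had 2.29 and chromosome 9 had 2.21. Of the 190 pairs of chromosomes that each had at least 5 members, 186 stood above 1, and the 4 below were chromosome 18 with chromosomes 8 (0.94), 6 (0.96), 1 (0.99) and 9 (0.99). Over its 19 pairs chromosome 18 ranged up to 1.73 with a median of 1.14. The 171 pairs without it ranged between 1.31 and 4.33 with a median of 1.83.

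The highest pairs were chromosomes 14 and 21 at 4.41 in ATRA, 3.57 in TPA and 4.91 in untreated cells, chromosomes 3 and 14 at 3.88, 3.02 and 4.12 in the same order, and chromosomes 16 and 17 at 3.71, 3.11 and 4.01. Chromosomes 15 and 16 followed with 3.14 and chromosomes 1 and 3 with 3.07 in the sum. All 5 hold bin pairs with very high counts, called joined here (20 or more contacts and 10 or more times expectation in the sum). Joined pairs numbered 745 over the genome and took in 108 members (21.6%, against 8.70% of eligible bins). Without them and their neighbours the 5 values in the sum were 3.22, 3.28, 3.09, 2.88 and 2.91, and chromosomes 9 and 11, with no such pair, stood at 2.89. Only 2 joined pairs involved chromosome 19, namely chr9:140500001-141000000 with 22 contacts and chr17:40500001-41000000 with 21, and leaving joined pairs out kept 492 of the 500 members.

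The members also met chromosomes 17, 20 and 22 often. The 330 members outside chromosomes 17, 20 and 22 had 10.6% of their contacts between chromosomes, chromosome 19 left out, with these 3 in ATRA (10.6 to 10.7), 11.0% in TPA (11.0 to 11.1) and 12.5% in untreated cells (12.4 to 12.6). The other bins had 6.99% in ATRA, 7.64% in TPA and 7.51% in untreated cells. By partner, the members' share over that of other bins was highest for chromosome 22, at 1.75 in ATRA, 1.65 in TPA and 1.92 in untreated cells, and for chromosome 17, at 1.605, 1.53 and 1.77 in the same order. It was lowest for chromosomes 6, 4 and 13, at 0.83, 0.84 and 0.84 in the sum. For chromosome 11 it was 0.96 and for chromosome 16 it was 1.26 in the sum. Chromosomes 11 and 16 have 9.64 and 9.44 genes per Mb, against 8.52 on chromosome 20 and 8.76 on chromosome 22. Chromosome 18 as a partner stood at 0.86, although its own members are on the list.

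Contacts within the members' own chromosomes entered the rule only through the coverage minimum. Members at least 2 Mb apart there met at 1.38 times the rate expected at their distance in ATRA (1.37 to 1.40), 1.31 times in TPA (1.297 to 1.32) and 1.33 times in untreated cells (1.32 to 1.34), in balanced contacts. Members met other bins there at 0.87 of expectation in ATRA, 0.81 in TPA and 0.84 in untreated cells. The excess was largest beyond 50 Mb, at 1.99 in ATRA, 1.84 in TPA and 1.95 in untreated cells, and smaller between 2 and 10 Mb, at 1.33, 1.23 and 1.19 in the same order. Between 2 and 10 Mb the log2 of ATRA over untreated cells was 0.17 (0.14 to 0.19), and between 10 and 50 Mb it was -0.08 (-0.11 to -0.05). Its sign at 2 Mb and more depends on the scaling: it was 0.06 in balanced and -0.20 in raw contacts. The same holds between 2 and 10 Mb, where it was -0.11 (-0.14 to -0.09) in raw contacts. Between 10 and 50 Mb it was -0.30 in raw contacts.

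Contacts between members were dense at short range, in raw contacts pooled over chromosomes. Coverage and chromosome make-up were not removed from the densities and slopes given here. At 0.5 Mb a pair of members had 14.2 contacts per 1000000 contacts of the matrix in ATRA, 15.9 in TPA and 24.4 in untreated cells, against 6.55, 7.25 and 10.0 for a pair of other bins. Between 1 and 10 Mb the members' contacts fell with distance with a log-log slope of -0.98 in ATRA, -0.95 in TPA and -1.04 in untreated cells, each with a counting error of 0.0076 to 0.0093. The slope of other pairs was -0.94 in ATRA, -0.90 in TPA and -1.11 in untreated cells. Between 10 and 100 Mb the members' curve was flatter than that of other bins, with slopes of -0.54 in ATRA, -0.58 in TPA and -0.46 in untreated cells, against -0.73, -0.75 and -0.73. In balanced contacts these slopes were -0.39 in ATRA, -0.47 in TPA and -0.37 in untreated cells, against -0.72, -0.74 and -0.73.

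**Figure D4:**
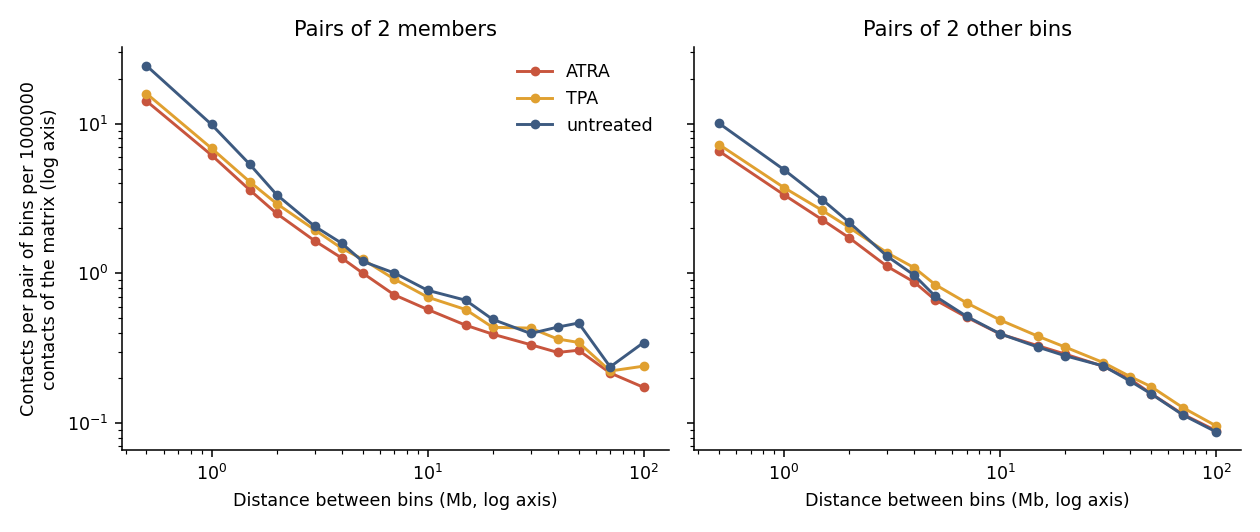
Raw contacts per pair of bins and per 1000000 contacts of the matrix (y axis, log scale) against the distance between the bins (x axis, Mb, log scale), for pairs of 2 members and pairs of 2 other bins, in ATRA, TPA and untreated cells. Pairs of members start higher, at 14.2 to 24.4 at 0.5 Mb against 6.55 to 10.0 for other bins, and flatten beyond 10 Mb.

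Coverage, the total of a bin's contacts, was above that of the median bin in members, by a factor of 1.03 in ATRA, 1.18 in TPA and 1.31 in untreated cells at the median member. Of the members, 126 lay below the median bin's coverage in the sum (25.2%, against 48.9% of the other bins). Contacts within the own chromosome made up 33.1% of the members' contacts in ATRA, 34.3% in TPA and 39.4% in untreated cells, against 29.1%, 33.9% and 35.7% for the other bins.

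The members had a smaller part of all contacts after either treatment. Their summed contacts were 8.75% of all contact ends in ATRA and 9.66% in TPA, against 10.5% in untreated cells. Contacts within a bin entered these sums by a single end and the total by both, so the percentages are somewhat low. Such contacts made up 5.19% of the members' contacts in ATRA, 5.53% in TPA and 6.84% in untreated cells. The median member's log2 ratio was -0.27 in ATRA, where the median other bin had 0.10, and -0.13 in TPA, where the median other bin had 0.04. It was below 0 in 474 members in ATRA (where it was in 30.6% of all eligible bins) and 476 in TPA (39.3%). Lower by a log2 of 0.32 or more, the limit used throughout, were 177 members in ATRA (35.4%, where 3.99% of all eligible bins were) and 1 in TPA (where 0.0191% were). No member was higher by as much in either, where 0.515% of all eligible bins were in ATRA and 0.0191% in TPA. Members had a lower median than the other bins of their chromosome on all 21 chromosomes in both comparisons. The member median nearest to 0 was that of chromosome 18, at -0.02 in ATRA and -0.04 in TPA.

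The members stood below the other bins both within and between chromosomes, in ratios scaled to the total of each matrix. In contacts within chromosomes the median member's log2 ratio was -0.51 in ATRA and -0.33 in TPA, against -0.22 and -0.02 for other bins. In contacts between chromosomes it was -0.13 in ATRA and -0.01 in TPA, against 0.23 and 0.08 for other bins. The gap between members and other bins was the larger between chromosomes in ATRA and within chromosomes in TPA.

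The members' contact share with chromosome 19 was lower in both treated matrices. Pooled, its log2 ratio to untreated cells was -0.64 in ATRA, with an interval of -0.66 to -0.62, and -0.36 in TPA, with one of -0.38 to -0.34. The other bins had -0.14 and 0.09. The share was below that of untreated cells in 478 of 500 members in ATRA (where it was in 64.1% of all eligible bins) and in 419 in TPA (41.8%), counts drawn from the contacts that chose the members. Relative to the median of all eligible bins, which was -0.14 in ATRA and 0.08 in TPA, the median member had -0.48 in ATRA and -0.42 in TPA.

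Because the rule used these same contacts, the counts past a log2 of 0.32 are given as description only: 339 members were lower in ATRA (67.8%, beside 21.6% of all eligible bins) and 306 in TPA (61.2%, beside 19.7%), while 6 were higher in ATRA (beside 21%) and 12 in TPA (beside 20.2%). The 500 bins chosen on TPA alone, which leaves both matrices of the ATRA comparison out of the choice, had 2.66% in ATRA and 4.03% in untreated cells, with a relative median of -0.36, and 272 of them were lower and 42 higher past the limit. The 500 chosen on ATRA alone had 3.24% in TPA and 3.98% in untreated cells, with a relative median of -0.26, and 224 of them were lower and 55 higher. The direction was the same with these choices and the size was smaller. Both comparisons share the untreated matrix.

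**Figure D5:**
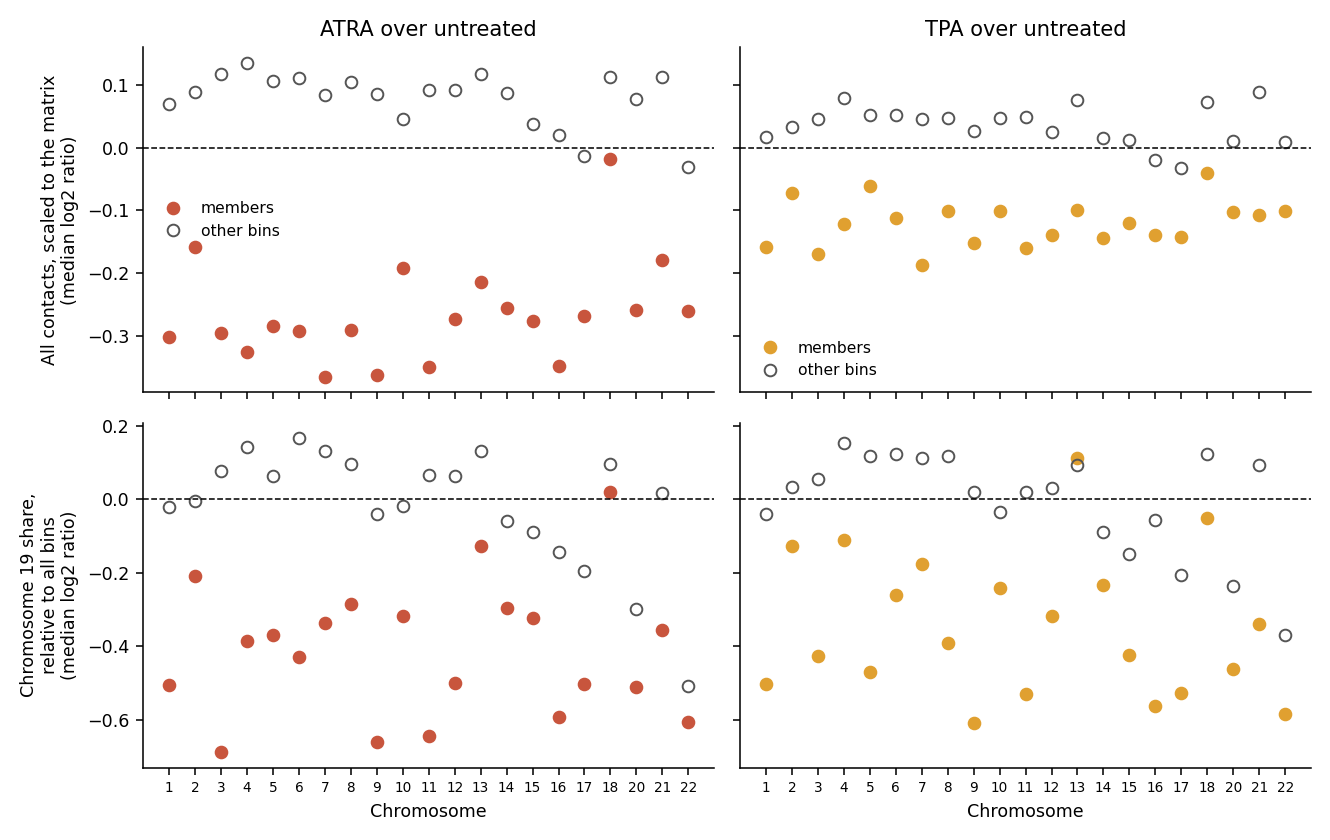
Median log2 ratio to untreated cells (y axes) of all contacts, scaled to the matrix (upper row) and of the chromosome 19 share relative to all bins (lower row), by chromosome (x axis), for members (filled) and other bins (open), in ATRA (left) and TPA (right). Members lie below the other bins of their chromosome in all contacts on all 21 chromosomes, and in the share on 21 in ATRA and 20 in TPA, with chromosome 13 (3 members) above in TPA.

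The 5 members with the largest falls lay on chromosomes 12 and 17 in ATRA and on chromosomes 3, 17 and 20 in TPA. The rule used these same contacts, so a bin could become a member through a high share in untreated cells. The single falls, and the rises after them, are therefore given as description only. Among the 493 members with at least 20 contacts with chromosome 19 in each matrix, the largest fall in share in ATRA was at chr12:133000001-133500000, which had 2.57% in ATRA, 4.78% in TPA and 7.77% in untreated cells, a log2 ratio of -1.60 (-2.02 to -1.17) in ATRA before scaling. It was followed by chr12:122500001-123000000, chr17:79500001-80000000, chr17:42000001-42500000 and chr17:80000001-80500000, with log2 ratios of -1.46, -1.41, -1.37 and -1.34. In TPA the lowest were chr17:37000001-37500000, with 2.26% in TPA and 5.74% in untreated cells, chr20:42000001-42500000, chr17:4000001-4500000, chr3:51500001-52000000 and chr17:3500001-4000000, with log2 ratios between -1.34 and -1.02. No bin was in both sets, each of which is 5 of 493 members. Chromosome 17 held 3 of each set and 15.6% of all members.

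Higher shares were fewer and rested on fewer contacts. In ATRA the 5 largest were chr7:64000001-64500000, chr5:17500001-18000000, chr18:43500001-44000000, chr21:17000001-17500000 and chr18:29500001-30000000, with log2 ratios between 0.49 and 0.30, and the counting interval of each included 0. In TPA the bin on chromosome 7 was again first, with 5.23% in TPA (75 contacts) and 2.40% in untreated cells (30 contacts), a log2 ratio of 1.12 (0.52 to 1.72). Of its 75 contacts in TPA, 41 lay in the window at 20 to 25 Mb, so the placing of reads from repeated sequence, not tested here, bears on this value too. It was followed there by chr12:57500001-58000000 with 0.81, chr5:17500001-18000000 with 0.68, chr2:86000001-86500000 with 0.56 and chr1:110000001-110500000 with 0.55.

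Contacts among members between chromosomes were also lower relative to expectation, by a log2 of -0.09 in ATRA (-0.10 to -0.07) and -0.17 in TPA (-0.19 to -0.16). With the expectation set within pairs of chromosomes the values were -0.0064 in ATRA (-0.019 to 0.0059) and -0.03 in TPA (-0.04 to -0.02). Of the 190 pairs of chromosomes, members met less in ATRA than in untreated cells in 138 and less in TPA in 164. Bin by bin, 29 members were lower by a log2 of 0.32 or more in ATRA (where 2.71% of all eligible bins were) and 91 in TPA (where 6.8% were), and 4 and 9 were higher (where 10.8% and 13.3% were). The share of contacts with chromosomes 17, 20 and 22 had a log2 ratio of -0.23 in ATRA and -0.18 in TPA in members, against -0.10 and 0.02 in the other bins.

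Most members lay in the compartment that meets chromosomes 17 and 22. The compartment score, the leading eigenvector of contacts within each chromosome, was above 0 in 87.0% of members in ATRA, 88.8% in TPA and 91.2% in untreated cells, where 45.8%, 40.2% and 49.4% of all eligible bins were. The same sign taken from contacts between chromosomes, chromosome 19 left out, put 97.2% of members above 0 in the sum, against 30.2% of all eligible bins. Of the 51 members below 0 within chromosomes in the sum, 48 lay on chromosomes 16, 17, 21 and 22, and 42 of the 51 were above 0 between chromosomes. Few members changed sides in the score within chromosomes. From above 0.5 SD in untreated cells to below -0.5 SD went 2 in ATRA (0.4%, where 0.496% of all eligible bins did) and 1 in TPA (0.2%, where 2.65% did). The opposite way went 2 in ATRA (where 0.267% of all eligible bins did) and 3 in TPA (where 0.191% did). Each member that changed lay on chromosome 16, 17, 21 or 22. Taken from contacts between chromosomes, its score stayed above 0 in the treated and the untreated matrix. Counts this small do not set members apart from all eligible bins.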

How the data were processed

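The 3 tables hold raw Hi-C contact counts in 500 kb bins of hg19, as the authors deposited them; per the labels, HindIII was used, and per the submitters' processing notes and the series' design text Bowtie (alignment), HiCUP (filtering) and HOMER 4.7 (binning) were used. The ATRA table comes from 1 library and the TPA and untreated tables each merge 2, so libraries cannot be compared. Contacts numbered 9632300 in ATRA, 10423501 in TPA and 10628045 in untreated cells; 120 bins of chromosomes Y and M were not used. Other processing settings were not given in the sources used here.

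From these counts the diagonal was halved and bins were taken as members by the rule in the text. Expected contacts between chromosomes were products of bin weights matched to coverage, with chromosome 19 left out; they include the members' own contacts, which lowers an excess. Observed over expected values within chromosomes used contacts balanced over 60 iterations, except where raw contacts are named. They were set over the chromosome's mean for that distance. Densities and slopes of the decay came from raw contacts pooled over chromosomes, except where balanced contacts are named. Intervals are exact Poisson or binomial at 95%, or from the log of a ratio of counts, and cover counting error only. Python 3.11.15, NumPy 2.4.6, SciPy 1.17.1, pandas 2.3.3 and Matplotlib 3.10.9 were used, and the functions were tested on simulated data. Regions were named by rank, length of run, nearness to the limit, size of change and chromosome pair. Members, lists and alternatives were chosen with earlier results of these data known.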

Additional observations from a re-analysis of the deposited data

How the results depend on the processing

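No paired analysis was possible because the libraries of each group are merged in its matrix, and for the same reason no library could be left out. Of 117 alternative values for 18 results, 32 lay within the counting interval (for counts, within 1.5 times) and 3 had the opposite sign; the causes were not tested. The opposite signs were all in contacts within chromosomes: for ATRA, -0.20 in raw contacts and -0.068 at 10 Mb or more, against 0.06, and for TPA, 0.0030 within arms, against -0.02. Other values there were 0.078 within arms for ATRA, and -0.12 in raw contacts and -0.10 at 10 Mb or more for TPA. The members' excess within chromosomes was 1.28, 1.33 and 1.29 with members chosen on ATRA, TPA and untreated cells, 1.41 with 250 and 1.248 with 1000 members, 1.36 in raw contacts, 1.46 at 10 Mb or more and 1.28 within arms. On chromosomes 17, 20 and 22 lay 108 of 250 members, and 73 of 500 where each share was divided by its chromosome's median. The excess between chromosomes was 1.59, 1.68 and 1.94 with members chosen on ATRA, TPA and untreated cells, 2.63 with 250 and 1.39 with 1000 members, 1.88 with coverage of 0.5 of the median, 1.90 without joined pairs, 1.42 within chromosome pairs, 2.00 without chromosomes 16, 17, 20 and 22, and 2.00 in balanced contacts. Its log2 difference in ATRA was -0.10 with 250 and -0.070 with 1000 members, -0.0064 within chromosome pairs, -0.15 without those chromosomes and -0.14 in balanced contacts. In TPA it was -0.14 with members chosen on ATRA, -0.28 with 250 and -0.075 with 1000 members, -0.033 within chromosome pairs, -0.21 without those chromosomes and -0.22 in balanced contacts. The slope differed from untreated cells by 0.015 with 250 members, 0.079 with 1000 and 0.014 in balanced contacts for ATRA, and by 0.064 with 250 and 0.11 with 1000 members for TPA. Coverage in ATRA was -0.24 with members chosen on TPA, -0.34 with 250 and -0.17 with 1000 members, -0.13 between and -0.51 within chromosomes; in TPA it was -0.10 with members chosen on ATRA, -0.15 and -0.087 with 250 and 1000 members, -0.0079 between and -0.33 within chromosomes. Past 1.5 times, 3 members were lower in ATRA, not 177, and no other eligible bin was, the lowest having a log2 of -0.52. The relative chromosome 19 share was -0.36 in ATRA with members chosen on TPA, -0.56 with 250 and -0.32 with 1000 members and -0.62 unscaled. In TPA it was -0.26 with members chosen on ATRA, -0.56 with 250 and -0.24 with 1000 members and -0.34 unscaled. Contact with chromosomes 17, 20 and 22, as log2 of members over other bins, was 0.50, 0.53 and 0.64 with members chosen on ATRA, TPA and untreated cells, 0.74 with 250 and 0.50 with 1000 members, and 0.74, 0.44 and 0.86 for chromosomes 17, 20 and 22 alone. Its difference in ATRA was -0.25 with 250 and -0.21 with 1000 members and -0.27, -0.19 and -0.32 for the single chromosomes. In TPA it was -0.13 with members chosen on ATRA, -0.25 with 250 and -0.10 with 1000 members and -0.20, -0.24 and -0.23 for the single chromosomes. Compartment scores above 0 were found in 76.8% and 85% of members chosen on ATRA and TPA, 95.2% of 250 and 81.5% of 1000 members, and 97.2% from contacts between chromosomes. Depth limits single bins most, as their counting intervals show.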
